A study of Bos taurus with 6 samples.

Results

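The TNF (tumour necrosis factor) superfamily was followed in the blood of cattle that carry the fat-1 transgene and of wild type cattle. Its members on the array were found by gene name, as probes named TNFSF or TNFRSF, the older names TNF, LTA, FAS, FASLG, CD27, CD40, CD40LG and CD70, and TRAF1 to TRAF6. This gave 63 probes of the 43653 besides controls, for 39 of 15430 gene symbols, with 14 ligands, 19 receptors and 6 TRAF adaptors. Each gene is represented by its probe with the highest mean signal over the 6 arrays. LTB, TNFRSF14 and TNFRSF17 were not analysed here.

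Whole blood was drawn from the jugular vein of 3 female fat-1 transgenic cattle and 3 female wild type cattle, with 1 array per animal. Fat-1 replicate 1 was 3.5 years old, and fat-1 replicates 2 and 3 and the wild type animals were 3 years old. The transgene comes from Caenorhabditis elegans, a nematode whose FAT-1 enzyme makes omega-3 fatty acids out of omega-6 ones, which mammals cannot do. The sources used here give neither the promoter of the transgene nor how many founder lines the animals came from, and as the array names no probe for the transgene its transcript was not measured. The labels do not describe how the animals were housed or related.

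TNF superfamily ligands are mostly trimers anchored in the cell membrane, from which some are shed, and they signal by clustering receptors on a neighbouring cell. Some receptors carry a death domain and can start apoptosis, others recruit TRAF adaptors that switch on NF-kB and MAP kinases, and decoys bind ligand without signalling. In blood the family is known for inflammation driven by TNF, for the killing of target cells by FAS ligand and TRAIL, for the co-stimulation of T cells and for the survival of B cells.

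Probe sequences are shown for TNFSF10 and TNFRSF18, the members with the highest and the lowest difference, because each had a second probe. They are given 5′ to 3′ as the scanner files hold them, with positions on the build Btau_3.1. The brighter TNFSF10 probe lies at chr1:97117828-97117887 on the plus strand and the dimmer one at chr1:97117669-97117728 on the same strand. The brighter TNFRSF18 probe was placed at chr16:48567533-48567764 on the plus strand, a span of 232 bases for a probe of 60 bases. The other TNFRSF18 probe was placed at chr16:48567432-48567491 on the minus strand. As it lies on the opposite strand, it is not read as a second measure of the TNFRSF18 transcript. Whether these positions are exonic, intronic or in untranslated regions was not assigned, for want of gene models of that build.
TNFSF10 brighter probe: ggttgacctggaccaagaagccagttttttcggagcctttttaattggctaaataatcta
TNFSF10 dimmer probe: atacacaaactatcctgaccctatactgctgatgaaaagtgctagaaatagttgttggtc
TNFRSF18 brighter probe: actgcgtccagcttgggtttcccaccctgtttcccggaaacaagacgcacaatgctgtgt
TNFRSF18 dimmer probe: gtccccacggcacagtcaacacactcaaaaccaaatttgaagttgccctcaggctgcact

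Values are log2 intensity above or below the array's own 75th percentile, so they can be compared between animals for a probe but not between probes. Spots well above background made up 60.4% to 63.5% of each fat-1 array and 58.4% to 61.3% of each wild type array. The 75th percentile of intensity was 716 to 1067 on the fat-1 arrays and 613 to 887 on the wild type arrays. The arrays of fat-1 animals shared one slide and one scan, and those of wild type animals another, which means that slide cannot be told apart from group in any result below. In whole blood, fewer cells of a type and less RNA per cell cannot be told apart either.

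No member of the family passed an adjusted p of 0.05 in the limma fit across all probes, where 46 of 26823 probes (0.171%) did. Of the 39 genes, 34 were well above background on at least 3 arrays and were tested, namely 12 ligands, 16 receptors and 6 adaptors. Their adjusted p ran from 0.209 to 0.975. At an unadjusted p under 0.05 there were 5 members of 34, or 14.7%, beside 12.8% of all probes tested. TNFSF10 and FAS were higher in fat-1 blood, 2 of 34 beside 6.15% of all probes. TNFSF9, TNFRSF18 and TNFRSF10A were lower in fat-1 blood, 3 of 34 beside 6.68% of all probes. The members' shares were thus near the background. Without fat-1 replicate 2 the count was 3 (8.82%, beside 7.56% of all probes), and without wild type replicate 1 it was 3 (8.82%, beside 8.5%). Without wild type replicate 3 it was 9 (26.5%, beside 23.3% of all probes). The 46 probes past the adjusted threshold became 8, 12 and 13 without fat-1 replicate 1, 2 and 3 and 55, 31 and 39 without wild type replicate 1, 2 and 3. No result about the family as a whole is read from them.

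The differences of the members scattered around that of the other genes. The median difference of fat-1 minus wild type was -0.10 over the 34 members and -0.06 over all probes tested. It was 0.08 over the 12 ligands, -0.24 over the 16 receptors and -0.04 over the 6 adaptors. Of the members, 19 of 34 (55.9%) had a difference below 0, against 55.4% of all probes. The groups' animals did not overlap for 7 of 34 members, or 20.6%, beside 19.6% of all probes. TNFSF13B and TRAF5 were the 2 that lay higher in fat-1 blood, beside 6.92% of all probes. TNFSF9, TNFRSF18, TNFRSF10A, TNFRSF13B and TRAF2 were the 5 that lay lower, beside 12.7% of all probes.

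**Figure D1:**
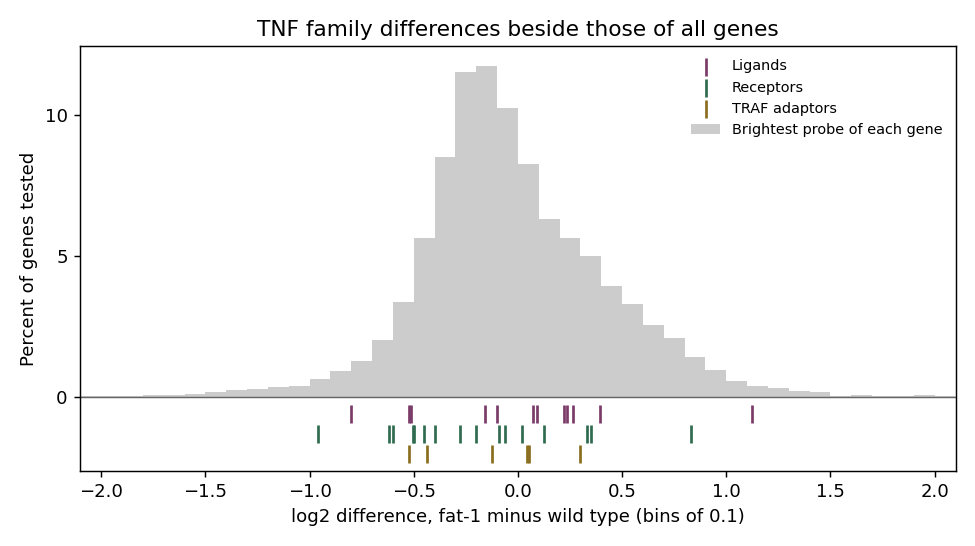
Percent of genes tested (bars, brightest probe of each gene) by log2 difference of fat-1 minus wild type in bins of 0.1; genes beyond -2.1 and 2.1 are not drawn. The coloured marks under the axis are the 34 tested TNF family members, which lie between -0.96 and 1.12, mostly within the bulk of the other genes.

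The precision sets what could have been seen. The standard error of a member's difference was 0.19 to 0.49, with a median of 0.27. The 95% interval reached a median of 0.61 to either side of the difference. For 19 of the 34 members the whole interval lay within 1 log2 unit of 0. These are separate intervals that are not adjusted for the number of members, and they hold for the groups together with their slides. The smallest difference among the 46 probes that passed was 1.44 in size, above that of every member.

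**Figure D2:**
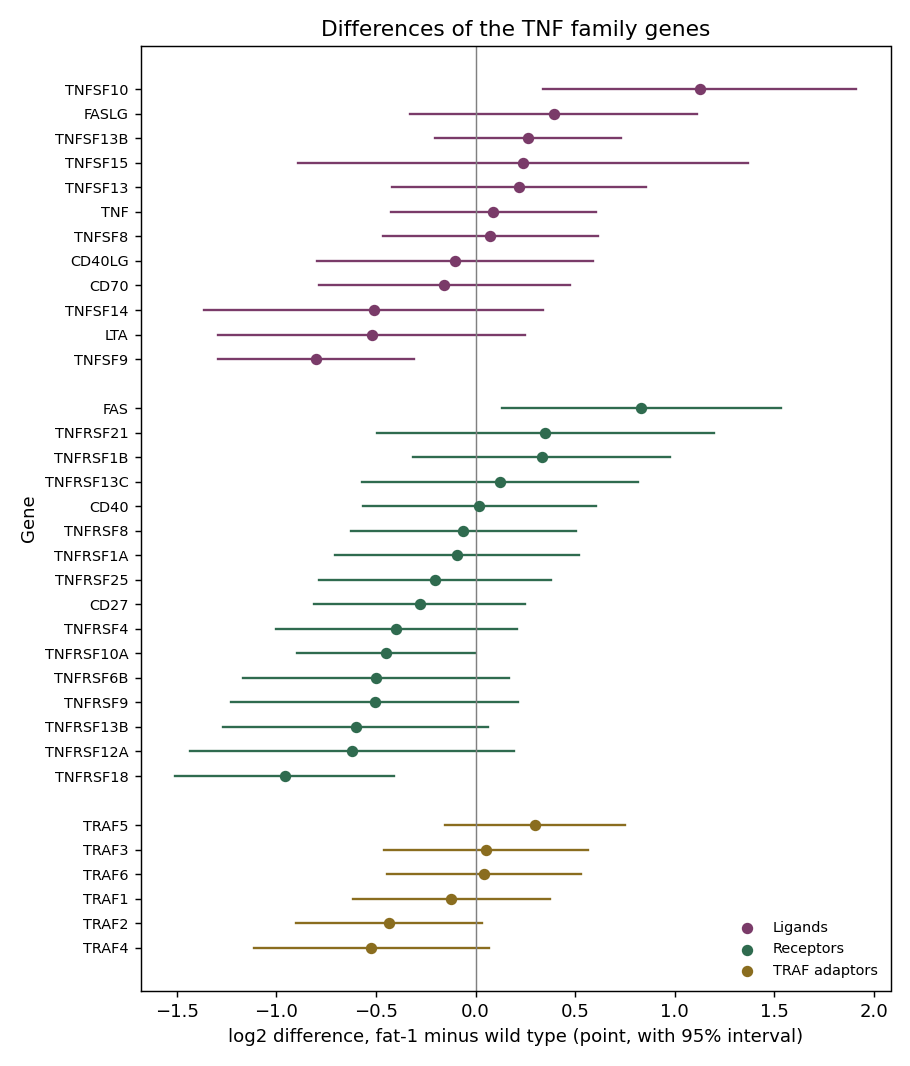
Log2 difference of fat-1 minus wild type (points) with its 95% interval (lines) for the 34 tested members, grouped as ligands, receptors and TRAF adaptors and ordered by size in each group. Of the 34 intervals, 29 include 0; those of TNFSF10 and FAS lie above it, and those of TNFSF9, TNFRSF18 and TNFRSF10A below it.

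Of the death ligands and receptors, TNFSF10 and FAS had the highest differences of the family, and FASLG and TNFRSF21 also lay above 0. The receptors TNFRSF10A, TNFRSF25 and TNFRSF1A had differences below 0. TNFSF10 encodes TRAIL, a ligand of death receptors carried by NK cells, T cells and monocytes among others. Its level was 0.40, 0.82 and -0.30 in fat-1 blood, against -1.05, -1.11 and -0.30 in wild type blood. The animals with replicate number 3 met at the same value, and the other fat-1 animals lay above the other wild type animals. The difference was 1.12 ± 0.34 (SE, n = 3 each; 95% interval 0.34 to 1.91), or 2.18-fold, with an unadjusted limma p of 0.0107 and an adjusted p of 0.291.

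The dimmer TNFSF10 probe repeated the pattern on the same animals. It read -0.63, -0.57 and -1.33 in fat-1 blood, against -2.03, -2.29 and -1.33 in wild type blood. Its difference was 1.04 ± 0.32 (SE), with an adjusted p of 0.299 from limma. Both probes thus placed TNFSF10 about 2-fold higher in fat-1 blood without passing the threshold, and as probes of the same RNA samples they do not count as replicates of each other.

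FAS is the death receptor that FAS ligand engages on activated lymphocytes. Its probe, at chr26:11164450-11164509 on the plus strand, read -0.09, 0.53 and 0.44 in fat-1 blood, against -0.77, -0.88 and 0.05 in wild type blood. Wild type replicate 3 lay above fat-1 replicate 1, so the groups overlapped. The difference was 0.83 ± 0.31 (SE, n = 3 each; 95% interval 0.13 to 1.53), or 1.78-fold, with an unadjusted limma p of 0.0253 and an adjusted p of 0.357. With array weights, FAS (1.02, adjusted p 0.0495) and TNFSF10 (1.32, adjusted p 0.0416) passed the threshold, but 1055 probes then did. Over the 16 alternatives the adjusted p ran from 0.0495 to 0.671 for FAS and from 0.0416 to 0.644 for TNFSF10. FASLG, its ligand on cytotoxic T and NK cells, read -3.04, -2.89 and -2.06 in fat-1 blood, against -3.19, -3.31 and -2.66 in wild type blood. Its groups overlapped, and its difference was 0.39 (95% interval -0.33 to 1.11), with 0.21 from a dimmer probe. The FASLG difference was 0.09 without fat-1 replicate 3 and 0.02 with normexp background correction.

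The receptor named TNFRSF10A in the files had lower values in all fat-1 animals. In human, TNFRSF10A is a death receptor for TRAIL. Its probe lies at chr29:50422723-50422782 on the plus strand and read -2.11, -2.13 and -2.27 in fat-1 blood, against -1.72, -1.63 and -1.81 in wild type blood. The groups did not overlap and each was tight, with SDs of 0.08 in fat-1 and 0.09 in wild type (n = 3 each). The difference was -0.45 ± 0.19 (SE), with an unadjusted limma p of 0.0482 and an adjusted p of 0.388. The symbol was absent from the table of RefSeq genes used for names. The difference of this probe and that of TNFSF10 had opposite signs, but whether the probe targets a TRAIL receptor was not established. The probes of TNFRSF10D, in human another receptor for TRAIL, had the sign of TNFSF10 (0.57, 0.27, 0.68 and 0.30).

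Of the other receptors with a death domain, TNFRSF21, also called death receptor 6, had a difference of 0.35 (95% interval -0.49 to 1.20). Its dimmer probes gave 0.02 and 0.67, the second with an unadjusted p of 0.0451 and no overlap between the groups, and all 3 probes had the same sign. TNFRSF25, the receptor of the ligand TNFSF15, had a difference of -0.20 and TNFSF15 itself one of 0.24. The interval of TNFSF15 was the widest of the tested members, at -0.89 to 1.37. TNFRSF6B, in human a soluble decoy for FAS ligand and related ligands, had a difference of -0.50, with -0.54 from its dimmer probe.

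**Figure D3:**
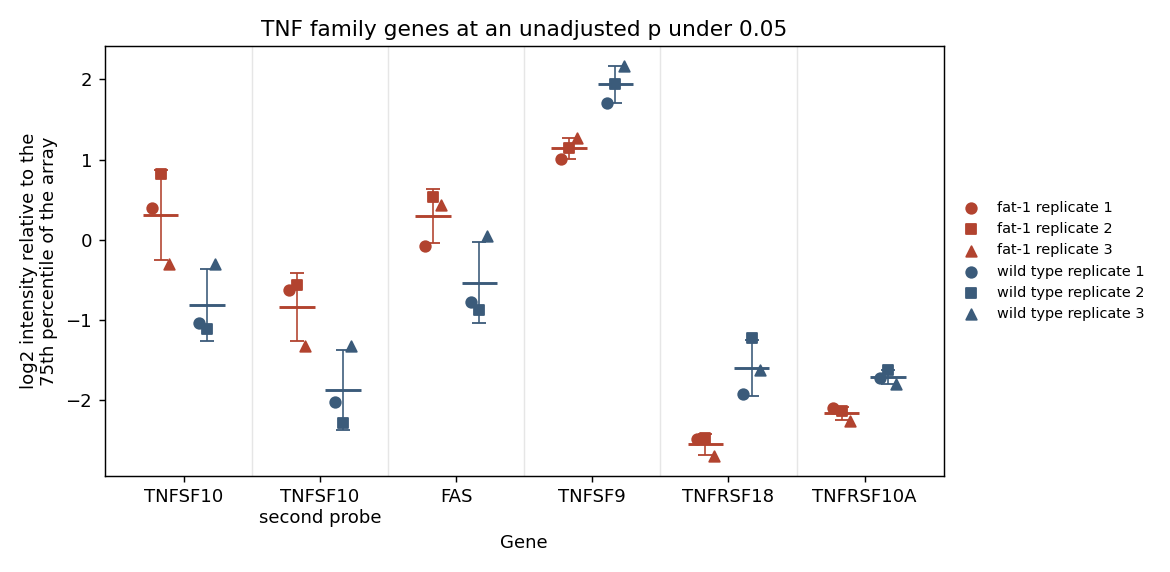
Log2 intensity (scaled to each array's 75th percentile) for the 5 members at an unadjusted p under 0.05, in 3 fat-1 (left in each pair) and 3 wild type animals, with the mean and SD. TNFSF10 (both probes) and FAS sit higher in fat-1 blood with touching or overlapping groups, while TNFSF9, TNFRSF18 and TNFRSF10A sit lower in all 3 fat-1 animals; levels of different probes are not comparable.

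TNF and its 2 receptors had overlapping groups, and the value of TNFRSF1B depended on the scaling. TNF, the founding inflammatory cytokine of the family, read 1.12, 1.42 and 1.40 in fat-1 blood, against 0.97, 1.49 and 1.21 in wild type blood. The groups overlapped, with a difference of 0.09 (95% interval -0.43 to 0.61) and -0.09 from a dimmer probe. The interval of TNF thus lay within 1 log2 unit of 0.

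TNFRSF1A, the widely expressed death domain receptor of TNF, read 3.82, 4.12 and 3.58 in fat-1 blood, against 3.78, 4.38 and 3.65 in wild type blood. Its difference was -0.09 (95% interval -0.70 to 0.52), and its sign turned to 0.06 under quantile scaling. TNFRSF1B, the TNF receptor of leukocytes that signals through TRAF2, read 6.94, 6.95 and 6.51 in fat-1 blood, against 6.37, 6.97 and 6.06 in wild type blood. Wild type replicate 2 was as high as the fat-1 animals, and the difference was 0.33 (95% interval -0.31 to 0.98). It was 0.54 with quantile scaling (unadjusted limma p 0.0264, adjusted p 0.337), 0.59 when wild type replicate 2 was left out and 0.13 when wild type replicate 3 was, and over the 16 alternatives the adjusted p ran from 0.164 to 0.782. LTA, the lymphotoxin of activated lymphocytes, had a difference of -0.52 (95% interval -1.29 to 0.25). Its probe lay 4772 bases from that of TNF on chromosome 23, and the intervals of these neighbouring genes overlapped.

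TNFRSF18 and TNFSF9, a co-stimulatory receptor and a co-stimulatory ligand, had the lowest differences of the family, while others of this kind such as TNFSF8, TNFRSF8 and CD40LG lay near 0. TNFRSF18, or GITR, is a receptor of regulatory and activated T cells. Its brighter probe read -2.49, -2.48 and -2.71 in fat-1 blood, against -1.93, -1.23 and -1.63 in wild type blood. All fat-1 animals lay below all wild type animals. The difference was -0.96 ± 0.24 (SE, n = 3 each; 95% interval -1.51 to -0.41), or 0.515-fold, with an unadjusted limma p of 0.0036 and an adjusted p of 0.209, the smallest of the family. The TNFRSF18 probe on the minus strand stayed near background on all 6 arrays and was not tested, so this difference rests on 1 probe.

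TNFSF9, or 4-1BB ligand, is displayed by activated antigen-presenting cells. Its probe, at chr7:16505698-16505757 on the minus strand, read 1.01, 1.14 and 1.27 in fat-1 blood, against 1.71, 1.95 and 2.17 in wild type blood. The groups did not overlap. The difference was -0.80 ± 0.22 (SE, n = 3 each; 95% interval -1.29 to -0.31), or 0.574-fold, with an unadjusted limma p of 0.00542 and an adjusted p of 0.242. Its receptor TNFRSF9, or 4-1BB, read -4.55, -3.80 and -3.64 in fat-1 blood, against -3.30, -3.22 and -3.95 in wild type blood. The groups of TNFRSF9 overlapped, its difference was -0.51 (95% interval -1.23 to 0.22), and on the array of fat-1 replicate 1 it was not well above background.

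The remaining co-stimulatory pairs had overlapping groups. TNFRSF4, or OX40, whose probe lay 6945 bases from that of TNFRSF18 on chromosome 16, read 1.18, 1.1 and 0.53 in fat-1 blood, against 1.40, 1.61 and 1.00 in wild type blood. Its difference was -0.40 (95% interval -1.0 to 0.21), and its ligand TNFSF4 stayed near background on all 6 arrays. TNFSF14, or LIGHT, a ligand of activated T cells, read -2.0, -1.86 and -0.83 in fat-1 blood, against -0.49, -1.40 and -1.27 in wild type blood. Its difference was -0.51 (95% interval -1.36 to 0.34), and fat-1 replicate 3 stood within the wild type range.

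CD70, a ligand of activated lymphocytes, read -2.83, -2.99 and -2.92 in fat-1 blood, against -2.28, -2.71 and -3.27 in wild type blood. CD27, the receptor of CD70 on T and memory B cells, read -1.08, -1.37 and -1.03 in fat-1 blood, against -1.01, -0.56 and -1.08 in wild type blood. The fat-1 values of CD70 lay within the wild type range and those of CD27 at its lower end or below it, with differences of -0.16 for CD70 and -0.28 for CD27. The CD70 probe lay 53451 bases from that of TNFSF9 and 65602 bases from that of TNFSF14 on chromosome 7. All 3 genes of this stretch had a difference below 0, and only TNFSF9 reached an unadjusted p under 0.05.

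TNFSF8, or CD30 ligand, read -0.86, -1.22 and -0.86 in fat-1 blood, against -0.72, -1.24 and -1.20 in wild type blood. Its difference was 0.07, with 0.36 and 0.66 from the dimmer probes. TNFRSF8, or CD30, read -3.44, -3.33 and -3.93 in fat-1 blood, against -3.41, -3.32 and -3.78 in wild type blood. The groups of this ligand and of its receptor overlapped, and the difference of TNFRSF8 was -0.06 (95% interval -0.63 to 0.50).

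Receptors of B cells mostly had overlapping groups as well. CD40, the receptor through which T cells help B cells, read 4.42, 4.44 and 4.66 in fat-1 blood, against 4.92, 4.43 and 4.10 in wild type blood. Its difference was 0.02 (95% interval -0.56 to 0.60), with -0.22 from the dimmer probe. CD40LG, its ligand on helper T cells, read -3.11, -2.41 and -2.24 in fat-1 blood, against -2.62, -2.78 and -2.06 in wild type blood. The groups of CD40LG overlapped, with a difference of -0.10 (95% interval -0.79 to 0.59).

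TNFSF13B encodes BAFF, the survival factor of B cells made largely by myeloid cells. It read -1.70, -1.69 and -1.60 in fat-1 blood, against -1.71, -2.06 and -2.02 in wild type blood. The groups touched without overlapping, and the difference was 0.26 (95% interval -0.20 to 0.73), with 0.28 from the dimmer probe. TNFSF13, or APRIL, the related ligand, had a difference of 0.22.

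TNFRSF13C, the BAFF receptor, read 4.74, 4.85 and 4.99 in fat-1 blood, against 5.41, 4.42 and 4.38 in wild type blood. Wild type replicate 1 stood above the fat-1 animals and the other wild type animals below them, and the difference was 0.12 (95% interval -0.57 to 0.82). TNFRSF13B, or TACI, which binds BAFF and APRIL, read -0.84, -1.78 and -0.87 in fat-1 blood, against -0.41, -0.53 and -0.75 in wild type blood. The groups of TNFRSF13B did not overlap, with fat-1 replicate 2 well below the others, and the difference was -0.60 ± 0.29 (SE), with an unadjusted limma p of 0.0709 and an adjusted p of 0.412. Without fat-1 replicate 2 the TNFRSF13B difference was -0.30 (unadjusted limma p 0.279). The B cell marker genes summed to a level of 59.4 to 64.4 in fat-1 blood, against 66.6 to 110 in wild type blood. Each gene's linear level is relative to the 75th percentile, so bright probes such as that of CD79A weigh most in the sum. Of the 7 B cell markers tested, BLK was lower at an unadjusted p under 0.05, beside 6.68% of all probes. The median difference of the markers was -0.28, with 4 below 0 and 3 above, namely MS4A1 (0.16), BANK1 (0.36) and CR2. CR2 was well above background on the 3 fat-1 arrays and 0 wild type arrays, so it entered the test only through the group where it is high, and its call is not read. The markers' part in the B cell receptors' values was not tested.

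TNFRSF12A, the receptor of the ligand TWEAK, is known from tissue repair. It had a difference of -0.62 (95% interval -1.43 to 0.19), and a dimmer probe gave -0.54 with no overlap between groups and an unadjusted p of 0.0269. That probe was well above background on 2 of 3 fat-1 arrays and on all 3 wild type arrays.

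The genes of bone remodelling were below detection. TNFSF11, or RANKL, its receptor TNFRSF11A and the decoy TNFRSF11B stayed near background on all 6 arrays, as did TNFSF4. TNFRSF19 was well above background only on the array of fat-1 replicate 1, where it read -3.18, against -7.02 and -7.43 in the other fat-1 animals and -6.66 to -6.94 in wild type animals. These 5 genes were not tested.

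The TRAF adaptors link the receptors to NF-kB and MAP kinases. TRAF2, the adaptor used by TNFRSF1B and most co-stimulatory receptors, read -0.59, -0.74 and -0.66 in fat-1 blood, against -0.12, -0.14 and -0.43 in wild type blood. All fat-1 animals lay below all wild type animals, and the difference was -0.43 ± 0.20 (SE), with an unadjusted limma p of 0.0635 and an adjusted p of 0.405. TRAF5, which is related to TRAF2 in function, read -0.60, -0.68 and -0.64 in fat-1 blood, against -0.88, -1.10 and -0.83 in wild type blood. Its fat-1 animals all lay above its wild type animals, with a difference of 0.30 (95% interval -0.16 to 0.75) and 0.15 and 0.35 from the dimmer probes.

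The other adaptors had overlapping groups. TRAF4 had a difference of -0.52 (95% interval -1.11 to 0.07). TRAF1, itself a target gene of NF-kB, had one of -0.12, which turned to 0.01 under quantile scaling. TRAF3, a brake on alternative NF-kB signalling, had one of 0.05, which turned to -0.02 under quantile scaling. TRAF6, which also serves Toll-like receptors, had one of 0.04. The intervals of TRAF1, TRAF3 and TRAF6 all lay within 1 log2 unit of 0.

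Other genes of TNF signalling, most of them downstream of the receptors, were read from a list of 66 genes. Of these, 59 were on the array and 56 were tested. Not downstream are the receptors LTBR, NGFR and RELT (differences -0.07, -0.42 and -0.06), which the choice by name left out of the family. Nor are the ligand EDA, which was not tested, and ADAM17 and RHBDF2. None of the 56 passed an adjusted p of 0.05. An unadjusted p under 0.05 was reached by 4, with TRAF3IP1 higher in fat-1 blood and TNFAIP3, NFKBIA and NFKBIE lower. The background at an unadjusted p under 0.05 was 12.8% of all probes, and the median difference of the 56 signalling genes was -0.07. The 9 tested genes of the death complex and the 12 kinases gave none at an unadjusted p under 0.05. Of the kinases, 8 of 12 had a difference above 0, with a median of 0.39. Of the 9 NF-kB subunits and inhibitors, 8 had a difference below 0, with a median of -0.21, and 2 (NFKBIA and NFKBIE) had an unadjusted p under 0.05. Of all probes, 55.4% had a difference below 0, and no result about the kinases or the NF-kB genes as a group is read from these counts.

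The signalling genes with the lowest differences were feedback inhibitors of NF-kB, which NF-kB itself is known to induce. NFKBIA encodes the inhibitor IkB-alpha. It read 4.94, 4.92 and 4.97 in fat-1 blood, against 6.22, 6.98 and 6.36 in wild type blood. The fat-1 animals were nearly identical and more than 1 log2 unit below every wild type animal. The difference was -1.58 ± 0.25 (SE, n = 3 each), with an adjusted p of 0.0726 from limma, and the other probes gave -1.22, -1.51 and -1.37. NFKBIA passed the threshold with 4 alternatives, namely normexp background correction (-1.45, adjusted p 0.0269), a filter on every array of a group (adjusted p 0.0442), an intensity trend (adjusted p 0.0103) and array weights (adjusted p 0.0122). In the main fit 21 probes passed higher in fat-1 blood and 25 lower. With these 4 alternatives, in the same order, 35 and 82, 33 and 48, 48 and 79, and 556 and 499 probes did. Over 15 alternatives the adjusted p of NFKBIA ran from 0.0103 to 0.235 and its difference from -1.73 to -1.33.

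TNFAIP3, or A20, a ubiquitin-editing enzyme that ends TNF receptor signalling, read -3.39, -4.11 and -4.52 in fat-1 blood, against -2.63, -2.05 and -2.15 in wild type blood. The groups did not overlap, and the difference was -1.73 ± 0.32 (SE, n = 3 each), with an adjusted p of 0.103 from limma. NFKBIE, the inhibitor IkB-epsilon, read 1.88, 1.58 and 1.93 in fat-1 blood, against 2.73, 3.56 and 2.36 in wild type blood. It too had no overlap, with a difference of -1.09 ± 0.32 (SE), an adjusted p of 0.274 from limma and -0.78 from a dimmer probe. TRAF3IP1 read -1.34, -1.45 and -1.76 in fat-1 blood, against -2.77, -1.69 and -2.35 in wild type blood, with a difference of 0.75 ± 0.30 (SE), an adjusted p of 0.372 from limma and 0.29 from the dimmer probe. With array weights these 3 genes passed as well, among 556 probes higher and 499 lower in fat-1 blood. Over 15 alternatives their adjusted p ran from 0.0306 to 0.26 for TNFAIP3, 0.0427 to 0.609 for NFKBIE and 0.0351 to 0.671 for TRAF3IP1.

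**Figure D4:**
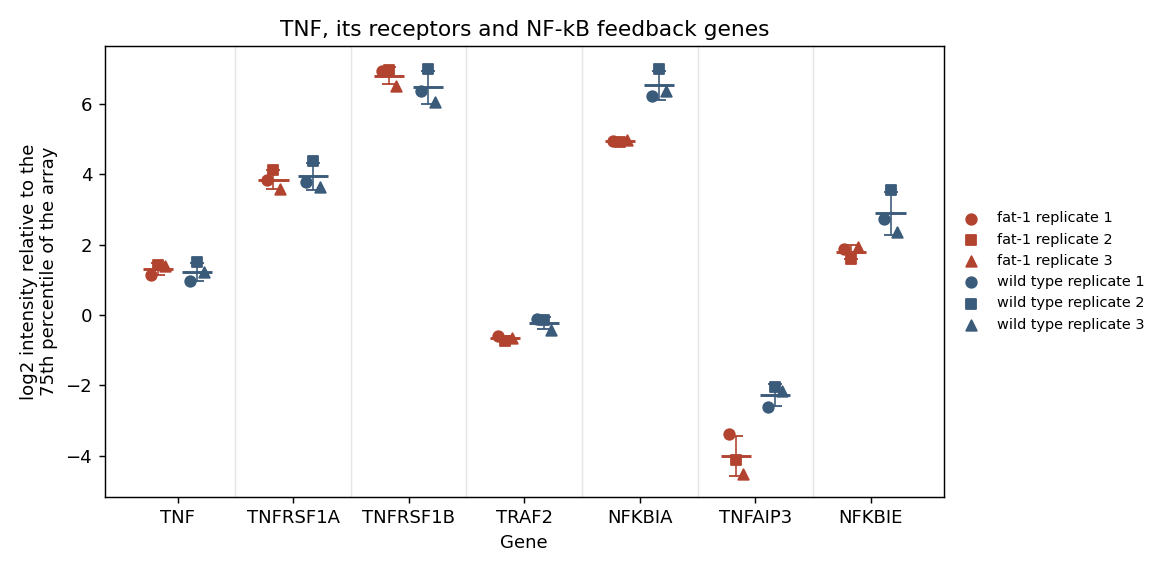
Log2 intensity (scaled to each array's 75th percentile) for TNF, its receptors, TRAF2 and the feedback genes NFKBIA, TNFAIP3 and NFKBIE, in 3 fat-1 (left in each pair) and 3 wild type animals, with the mean and SD. The groups of TNF, TNFRSF1A and TNFRSF1B overlap, while TRAF2, NFKBIA, TNFAIP3 and NFKBIE lie lower in all 3 fat-1 animals; levels of different probes are not comparable.

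Genes known to be induced quickly when blood is handled were set beside these inhibitors. Of 20 such genes tested, 12 were lower in fat-1 blood at an unadjusted p under 0.05, beside 6.68% of all probes. None was higher, beside 6.15% of all probes, and none passed an adjusted p of 0.05. The genes' median difference was -0.83, with 17 below 0 and 3 above. Those above were HSPA1A (0.11), CXCL8 (0.26) and CD69 (0.22), while FOSB (-0.05) and NR4A1 (-0.01) lay near 0. The list's summed level was 167 to 226 in fat-1 blood, against 261 to 401 in wild type blood. DUSP1, for example, read 4.35, 4.73 and 5.06 in fat-1 blood, against 5.73, 6.11 and 5.97 in wild type blood. FOS read 1.52, 2.82 and 3.55 in fat-1 blood, against 3.57, 4.28 and 4.24 in wild type blood. The groups overlapped neither in the summed level nor for DUSP1 and FOS. The part of the handling genes in the values of TNFSF9, TNFRSF18 and the inhibitors was not tested.

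Markers of the cells that carry the co-stimulatory receptors were set beside them. The background for the counts below, at an unadjusted p under 0.05, was 6.15% of all probes higher and 6.68% lower. Of the gamma-delta T cell markers, all 5 tested were lower in fat-1 blood at an unadjusted p under 0.05, with a median difference of -1.45 and a summed level of 6.78 to 26.9 in fat-1 blood, against 33.3 to 60.6 in wild type blood. Of 12 general T cell markers none reached an unadjusted p under 0.05, with a median of -0.17 and a summed level of 122 to 170 in fat-1 blood, against 171 to 263 in wild type blood. The T cell sums did not overlap, and their part in the values of TNFRSF18, TNFRSF4 and CD27 was not tested. Of 10 monocyte markers, CX3CR1 and FCGR3A were higher at an unadjusted p under 0.05, and the summed level was 334 to 392 in fat-1 blood, against 317 to 458 in wild type blood. Of 7 NK cell markers, KLRK1 was higher (0.90) and NCR1 lower (-0.81) at an unadjusted p under 0.05. The NK cell sums also overlapped, at 40.1 to 82.6 in fat-1 blood and 35.3 to 58.3 in wild type blood, and the part of either cell type in the TNFSF10 values was not tested. As a check of the tissue, neutrophil markers summed to 478 to 689 in fat-1 blood and 460 to 618 in wild type blood, and red cell markers to 531 to 1035 in fat-1 blood and 98.5 to 1228 in wild type blood.

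Genes with several probes allowed a check within the array. Of the 39 members, 18 had more than 1 probe, and 17 further probes of 14 genes were tested. The sign was that of the brightest probe for 14 of these 17, and the 3 exceptions were TNF, CD40 and TNFRSF13C, whose brightest probes had differences of 0.12 or less in size. Over all 51 member probes tested, 8 (15.7%, beside 12.8% of all probes) had an unadjusted p under 0.05 and 0 an adjusted p under 0.05.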

How the data were processed

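The deposited spot intensity came from Agilent Feature Extraction, version 10.7.1.1 in the submitters' processing notes. Per the file headers, its processed intensity is background-subtracted and detrended within the array, and very dim spots get a surrogate value, which narrows the spread of dim probes. The series' deposited value table holds log2 values by the authors, with one distribution and a median of 6.38 in every column. Each column correlated at 0.9997 or above with its own array and at 0.985 or below with others, and the table was taken as quantile-normalized log2 processed intensity and used as an alternative. The file of wild type replicate 2 keeps values to 3 significant digits, and probe names were taken from the first file. Deposited flags of 0 or 1 gave detection and outliers.

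The log2 of processed intensity was scaled by subtracting the array's 75th percentile. Spots of a probe were averaged, with population outliers left out, and 32 probes with a non-uniformity flag were dropped. A probe was tested if 3 or more of the 6 arrays, from whichever group, had it well above background. The test was limma's moderated fit (lmFit, eBayes; version 3.58.1, R 4.3.3), adjusted by Benjamini-Hochberg over all 26823 probes. No member spot was saturated or dropped. The fit was tested on simulated data. The number of arrays limits the precision. Nothing beyond the labels says that the samples were independent in herd or day. The p-values set the difference of the groups, together with their slides, against the spread of these animals within a group. Variation between slides is not part of that spread.

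The family members, the signalling list, the handling genes and the cell type markers were chosen with earlier results of these data known. Names came from RefSeq genes of ARS-UCD2.0 by accession for 20690 probes, by symbol for 10711 and by synonym for 375, while 596 kept the file's name and 11281 had none. Positions are those of the files. Per-animal values are given for members at an unadjusted p under 0.05 and for ligand and receptor pairs, and of the signalling list for up to 6 genes in each direction at an unadjusted p under 0.05. TRAF2, TRAF5, TNFRSF19, DUSP1 and FOS were added after their values were seen. Alternatives were 2 other scalings, normexp with an offset of 50, other filters, the authors' table, other variance models, a replicate block, the mean over probes and leaving out each animal.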

Additional observations from a re-analysis of the deposited data

How the results depend on the processing

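Of the 5 members at an unadjusted p under 0.05, TNFSF10 (0.87 to 1.43), TNFSF9 (-0.92 to -0.62) and TNFRSF18 (-1.12 to -0.69) kept their sign and that threshold under all 16 alternatives, FAS under 12 and TNFRSF10A under 7, and none of the 5 changed sign. No member passed an adjusted p of 0.05 under an alternative except with array weights, where FAS and TNFSF10 made it 2. The cause of the changes below was not tested. The 46 probes became 16 with quantile scaling, 117 with normexp, 14 with no filter (unadjusted p under 0.05: 3947), 81 with the filter on every array of a group, 16 with the authors' table, 127 with an intensity trend, 1055 with array weights and 8 to 55 with 1 animal left out. With the replicate block they became 105 and the members 0. Deviations of animals with the same number correlated at 0.117, 0.185 and 0.0058, so the numbers were not taken to pair the animals. Members at an unadjusted p under 0.05 numbered 14 with array weights (41.2%, beside 30.5% of all probes) and 3 to 9 with 1 animal left out (8.82% to 26.5%, beside 7.56% to 23.3%). Signalling genes past the adjusted threshold numbered 1 with normexp, 1 with the filter on every array of a group, 1 with an intensity trend and robust variance and 4 with array weights. Of the 56 signalling genes tested, those at an unadjusted p under 0.05 numbered 9 with an intensity trend, beside 14.1% of all probes. They numbered 12 with array weights, beside 30.5% of all probes, and 10 with the mean over probes, whose background is not given here. With 1 animal left out they numbered 3 to 12, and the 12 without wild type replicate 3 stood beside 23.3% of all probes. No result about the list is read from these counts. The median over members was -0.19 with normexp, beside -0.15 over all probes, and -0.19 with array weights, beside -0.08 over all probes. It was -0.21 to -0.027 with 1 animal left out, and that of receptors was -0.35 to -0.075. Some members changed sign, among them TNFRSF21, with a difference of 0.35 in the report. With array weights these were CD40 (-0.32), CD40LG (0.0089), TNFRSF13C (-0.41), TNFRSF1A (0.060), TNFRSF21 (-0.29), TNFRSF25 (0.060), TNFSF8 (-0.21), TRAF3 (-0.017) and TRAF6 (-0.092). With normexp they were TNFRSF1A (0.0091), TNFSF15 (-0.23), TNFSF8 (-0.0065) and TRAF3 (-0.063). With quantile scaling they were TNFRSF1A (0.062), TRAF1 (0.011) and TRAF3 (-0.019), with the authors' table TNFRSF1A (0.063), TRAF1 (0.0100) and TRAF3 (-0.021), and with the mean over probes CD40 (-0.10) and TNF (-0.0026). With 1 animal left out the ranges that crossed 0 were CD40 -0.17 to 0.24, CD40LG -0.27 to 0.16, CD70 -0.42 to 0.080, TNF -0.040 to 0.22, TNFRSF13C -0.056 to 0.46, TNFRSF1A -0.24 to 0.13, TNFRSF25 -0.35 to 0.0010, TNFRSF8 -0.20 to 0.12, TNFSF15 -0.28 to 0.61, TNFSF8 -0.020 to 0.24, TRAF3 -0.087 to 0.14 and TRAF6 -0.069 to 0.12. Dim signal limits TNFSF4, TNFSF11, TNFRSF11A, TNFRSF11B and TNFRSF19, and the slide cannot be told apart from the group.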

Other observations

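The current gene table places TNFRSF10D, in human a decoy receptor for TRAIL, at 4 probes that the files name otherwise and that the choice by name therefore did not take in. Its brightest probe read 0.84, 1.08 and 0.64 in fat-1 blood, against 0.02, 0.18 and 0.65 in wild type blood. The groups overlapped by wild type replicate 3 alone. The difference was 0.57 ± 0.24 (SE, n = 3 each), with an unadjusted limma p of 0.0459 and an adjusted p of 0.387, and the other probes gave 0.27, 0.68 and 0.30. All 4 differences thus lay above 0, while that of the probe named TNFRSF10A lay below 0, and those probes shared no run of more than 6 bases with it. TNFSF18, the ligand of TNFRSF18, likewise had 2 probes under another name, and neither was well above background on any array.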
